A study of Mus musculus with 12 samples.

Results

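The 9 genes described here, Renbp, Cpne8, Atg9b, Fez1, Klk8, Cdsn, Klra4, Kcnn4 and Tenm4, are genes whose probes fell steeply in a mouse fibroblast clone made to lower the small nucleolar RNA U17. They were picked by symbol because they had shown large falls in that clone from unmodified cells or from a clone made to overexpress U17. They are 9 of 9108 genes with a kept probe, and 22 of the 45281 probes of the array carry their symbols. RNA of NIH-3T3, a fibroblast line derived from mouse embryos, was hybridised to Illumina bead arrays from unmodified cells (WT), from 1 stable clone with the construct ShSnhg3 (U17_KD) and from 1 stable clone with the construct pMDβglobinU17b (U17_OE). Each group had 4 arrays, whose titles call them biological replicates. Cells of every group had spent 24 hours in LPDS medium before RNA was taken. The study set out to find target mRNAs of U17. Because each manipulated group is a single clone, the level of U17 and the identity of the clone cannot be told apart, and p-values measure only the spread between the arrays of these cells.

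U17 is an H/ACA box small nucleolar RNA processed from introns of the host transcript Snhg3, and it is needed for the processing of ribosomal RNA. The genes described here belong to no single pathway. Some act inside the cell, on amino sugars, membranes, autophagy or kinesin cargo. Others encode secreted proteins known from the epidermis, and the rest encode membrane proteins: a receptor of natural killer cells, a potassium channel and a cell adhesion protein. Several are known mainly from epithelia, lymphocytes or neurons, while NIH-3T3 is a fibroblast line.

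The promoters of 4 of the genes are shown to let their composition be compared. The genes fell together in U17_KD, but several are known mainly from different tissues. Renbp and Klk8 had the largest falls from WT, Klra4 was low in both clones, and Kcnn4 was low in U17_KD and high in U17_OE. The sequences are from RefSeq on GRCm38.p6, each of 300 bases from 250 before to 50 after a start site, written 5′ to 3′ on the strand of the gene. Capitals mark matches to the motifs searched, which appear as their reverse complement where the match is on the other strand. The Renbp promoter lies at chrX:73930801-73931100 on the minus strand, that of Klk8 at chr7:43797327-43797626 on the plus strand, that of Klra4 at chr6:130067222-130067521 on the minus strand, and that of Kcnn4 at chr7:24370013-24370312 on the plus strand.
Renbp: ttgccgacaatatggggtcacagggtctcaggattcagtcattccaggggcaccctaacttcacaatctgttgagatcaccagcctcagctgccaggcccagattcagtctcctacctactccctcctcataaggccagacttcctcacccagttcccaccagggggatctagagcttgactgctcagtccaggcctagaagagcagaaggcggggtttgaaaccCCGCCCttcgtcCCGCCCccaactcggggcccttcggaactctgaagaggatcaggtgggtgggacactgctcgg
Klk8: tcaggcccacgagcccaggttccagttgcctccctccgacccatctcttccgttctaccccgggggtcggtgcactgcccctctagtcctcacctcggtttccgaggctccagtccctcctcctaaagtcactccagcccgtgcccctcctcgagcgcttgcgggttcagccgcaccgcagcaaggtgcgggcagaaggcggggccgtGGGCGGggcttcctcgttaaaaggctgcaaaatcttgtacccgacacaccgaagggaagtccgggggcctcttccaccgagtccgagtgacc
Klra4: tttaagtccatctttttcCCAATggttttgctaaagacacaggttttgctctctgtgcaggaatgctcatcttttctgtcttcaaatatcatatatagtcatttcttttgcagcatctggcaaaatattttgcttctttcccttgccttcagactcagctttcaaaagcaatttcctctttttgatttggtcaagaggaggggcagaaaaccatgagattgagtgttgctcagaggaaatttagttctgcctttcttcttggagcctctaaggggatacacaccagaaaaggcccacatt
Kcnn4: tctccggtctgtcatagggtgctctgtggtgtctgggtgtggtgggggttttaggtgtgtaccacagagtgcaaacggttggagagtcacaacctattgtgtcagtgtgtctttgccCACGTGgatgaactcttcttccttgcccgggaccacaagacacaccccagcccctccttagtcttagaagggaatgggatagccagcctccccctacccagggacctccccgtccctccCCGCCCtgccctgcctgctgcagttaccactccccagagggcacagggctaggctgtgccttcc

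These promoters differ in base composition. The observed over expected ratio of CpG was 0.318 for Renbp, 0.736 for Klk8, 0 for Klra4 and 0.226 for Kcnn4, against a median of 0.384 over all 32851 promoters. Matches to the GC box GGGCGG begin 25 and 13 bases before the start site in Renbp, 42 before it in Klk8 and 14 before it in Kcnn4. Kcnn4 also holds the E-box CACGTG 133 bases before its start site, and Klra4 holds the CCAAT box 232 bases before its own. All 9 genes have promoters in the table, 13 in all. The GC box occurred in 5 of those 13 promoters and in 35.7% of all promoters, and the CCAAT box in 4 of 13 against 37.4%. The TATA box TATAAA occurred in 1 of 13 against 13.6%, the E-box in 2 of 13 against 7.15%, and the AP-1 motif TGANTCA in 0 of 13 against 7.81%. Both strands were searched. A match is a description of the letters in this window only.

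Array values are the authors' normalized intensities with background subtracted, on a linear scale, and levels are not compared between probes. A probe was called detected at an intensity of 30.5 or more and kept if detected on at least 4 of the 12 arrays. In these already normalized values, between 15820 and 15832 probes were detected per array. Correlations were 0.980 to 0.995 between arrays of a group and 0.966 to 0.989 between arrays of different groups. U17_OE replicate 3 stood apart from its group, with a fitted array weight of 0.217 against 0.619 to 1.78 for the other arrays. There were 0 probes named Snhg3, Snora73a or Snora73b, so the targeted RNA could not be checked. Of the 22 probes of the 9 genes, 15 were kept and each gene had at least 1. The 7 others, 2 each of Cpne8, Klra4 and Tenm4 and 1 of Atg9b, were detected on at most 1 array of any group. A gene's main probe is its kept probe with the highest mean.

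In U17_KD the main probes of all 9 genes read below WT and below U17_OE on every array. The genes were chosen for these falls, so they are described without a test. In the 2 comparisons, every U17_KD array lay below every WT array in 22.4% of all genes and below every U17_OE array in 15.6%. U17_KD intensity was 4.82% of WT for Renbp, 8.76% for Klk8, 16.9% for Cpne8 and Atg9b, 17.5% for Cdsn, 17.7% for Klra4, 18.3% for Tenm4, 25.0% for Fez1 and 34.2% for Kcnn4. By the main probes, the transcript was thus nearly lost for Renbp and Klk8, whereas the other 7 genes kept 16.9% or more of the WT intensity. Renbp and Klk8 have no second probe to compare, and the other kept probes of Cdsn were detected on 0 of 4 U17_KD arrays. The main probes of 8 genes were still detected on 4 of 4 U17_KD arrays, and that of Klk8 on 3 of 4. The median log2 fold change of the 9 genes was -2.30 from WT, where the median of all genes was -0.02, and -2.31 from U17_OE, where it was -0.01. In bulk RNA, fewer cells carrying a transcript and less of it in each cell cannot be told apart.

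**Figure D1:**
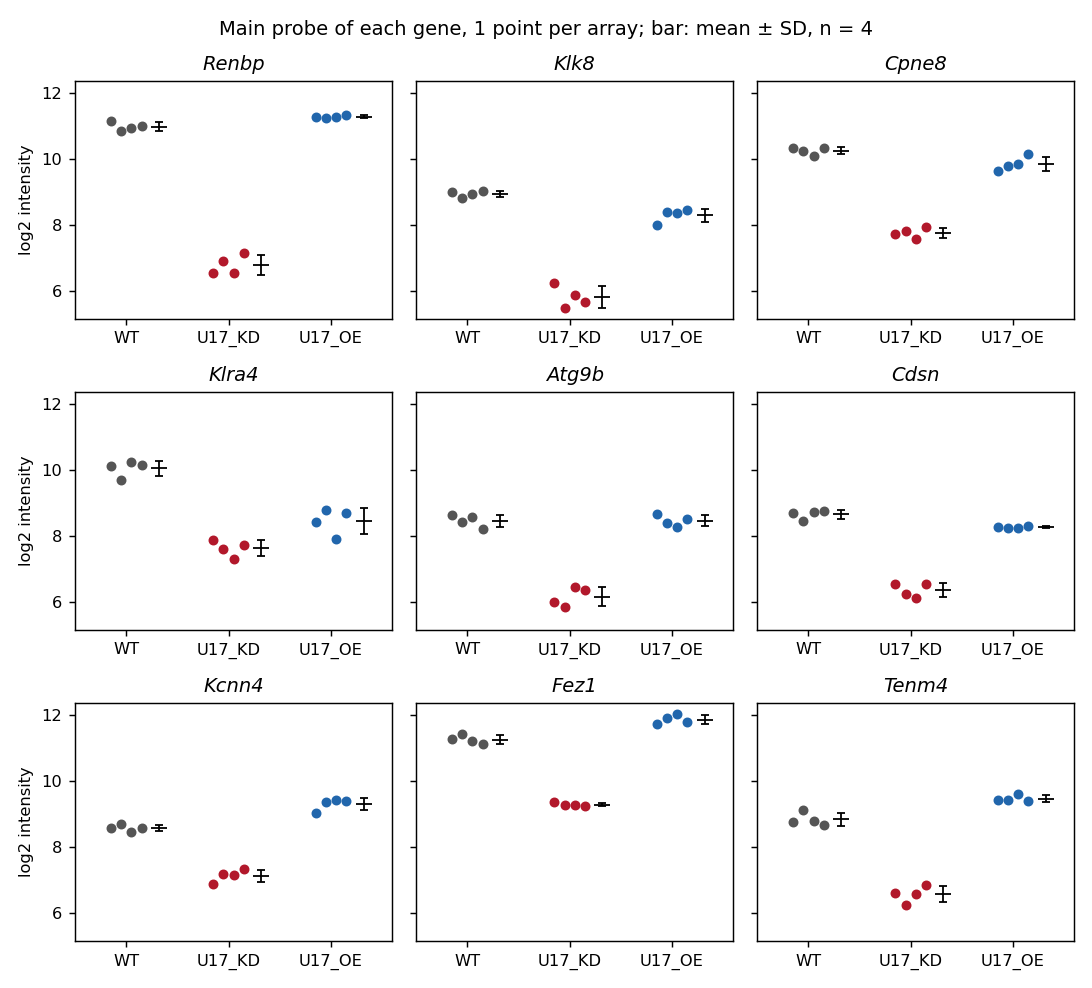
Intensity on a log axis of the main probe of each of the 9 genes on 4 WT, 4 U17_KD and 4 U17_OE arrays, with points for arrays and a bar for the group mean; levels of different probes cannot be compared. Every U17_KD point lies below every WT and U17_OE point of the same gene.

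Among the genes that act inside the cell, Renbp fell furthest. It encodes the renin-binding protein, an epimerase that interconverts N-acetylglucosamine and N-acetylmannosamine. Its WT arrays read 2234, 1810, 1911 and 2002, its U17_KD arrays 76.8, 103.5, 78.0 and 124.9, and its U17_OE arrays 2417, 2370, 2440 and 2561. The U17_KD arrays lie far below both other groups, and U17_OE lies above WT on every array. The log2 fold change was -4.19 ± 0.12 (SE, n = 4 per group) from WT and -4.50 ± 0.12 from U17_OE.

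Cpne8 encodes a copine, a calcium-dependent phospholipid-binding protein. On the WT arrays it read 1254, 1185, 1068 and 1259, its U17_KD arrays 193.5, 210.7, 174 and 227.6, and its U17_OE arrays 775, 867, 894 and 1103. The U17_KD group stands clear of both others, whereas 1 U17_OE array reads above the lowest WT array. On the log2 scale the change was -2.48 ± 0.11 from WT and -2.09 ± 0.11 from U17_OE. A second kept probe gave -2.39 and -2.24.

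Atg9b encodes a membrane protein of the vesicles that supply lipid to the forming autophagosome, and is the paralog of Atg9a. Its WT arrays read 377, 327, 364 and 280, its U17_KD arrays 48.5, 41.7, 71.8 and 66.1, and its U17_OE arrays 388.5, 321.7, 292 and 350. WT and U17_OE overlap almost fully, and U17_KD lies below both. The log2 fold change was -2.30 ± 0.14 from WT and -2.31 ± 0.14 from U17_OE.

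Fez1 encodes an adaptor that links cargo to kinesin, known for its part in axon outgrowth. On the WT arrays it read 2469, 2699, 2359 and 2188, its U17_KD arrays 639, 604.5, 604 and 584, and its U17_OE arrays 3390, 3796, 4143 and 3476. The 3 groups do not overlap, with U17_KD lowest and U17_OE highest. Its log2 fold change was -1.97 ± 0.09 from WT and -2.57 ± 0.09 from U17_OE, and a second probe gave -1.88 and -2.59.

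Both secreted proteins are known from the outer epidermis. Klk8 encodes neuropsin, a kallikrein-related serine protease also found in the hippocampus. Its WT arrays read 488, 429, 471 and 503.5, its U17_KD arrays 60.7, 28.3, 42.5 and 34.2, and its U17_OE arrays 240, 315, 310 and 333. The 3 groups do not overlap, with U17_OE between the others, and the second U17_KD array lies below the level of detection. The log2 fold change was -3.12 ± 0.15 from WT and -2.48 ± 0.15 from U17_OE.

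Cdsn encodes corneodesmosin, which holds the cells of the cornified layer together until proteases of the kallikrein family cleave it. In WT it read 393.7, 331, 407.5 and 414, its U17_KD arrays 77.6, 60.05, 54.2 and 78.3, and its U17_OE arrays 294, 287, 284 and 300.7. Here too the 3 groups do not overlap and U17_OE lies between the others. Its log2 fold change was -2.29 ± 0.12 from WT and -1.90 ± 0.12 from U17_OE. Of its other 2 kept probes, both detected on 0 of 4 U17_KD arrays, 1 was at least 1.86-fold lower than in WT and at least 1.46-fold lower than in U17_OE, and the other at least 1.66-fold and at least 1.25-fold lower.

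Of the membrane proteins, Klra4 differed from the rest in being low in both clones. It encodes an activating receptor of natural killer cells of the Ly49 family. Its WT arrays read 1084, 810.4, 1181 and 1105, its U17_KD arrays 219, 179, 142.8 and 197.5, and its U17_OE arrays 328, 420, 222 and 396. Both clones lie well below WT, and U17_KD and U17_OE are separated only by the gap between 219.0 and 221.8. The log2 fold change was -2.41 ± 0.17 from WT and -0.81 ± 0.17 from U17_OE. A second kept probe, detected on 4 WT, 2 U17_KD and 3 U17_OE arrays, gave -1.60 and -0.60, and there U17_KD and U17_OE overlapped. The Ly49 genes are close copies of each other, so it is uncertain which of them these probes read.

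Kcnn4 encodes the intermediate-conductance potassium channel opened by calcium. In WT it read 364, 395, 337 and 369, its U17_KD arrays 102.3, 128.8, 125.3 and 144.3, and its U17_OE arrays 501, 640, 675 and 662. The 3 groups do not overlap and U17_OE is the highest. On the log2 scale the change was -1.45 ± 0.12 from WT, the smallest fall of the 9, and -2.18 ± 0.12 from U17_OE.

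Tenm4 encodes a teneurin, a large transmembrane protein that joins cells by binding latrophilins and other teneurins. In WT it read 416, 542, 428 and 389, its U17_KD arrays 82.7, 60.9, 79.1 and 101, and its U17_OE arrays 674, 666, 766 and 652. The order is that of Kcnn4, with no overlap. Its log2 fold change was -2.26 ± 0.13 from WT and -2.89 ± 0.13 from U17_OE, and a second kept probe gave -1.88 and -2.49.

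The 9 genes are not the only ones that fell this far. From WT, 181 genes fell at least 2-fold in U17_KD, these 9 among them, and 40 fell at least 4-fold, 7 of these 9 among them. The rule has no numerical threshold. There were 76 other genes at least as low as Kcnn4 in U17_KD against WT, and 249 at least as low as Klra4 in U17_KD against U17_OE. Counted from the largest fall from WT, Renbp was in place 1, Klk8 in place 7 and Kcnn4 in place 85. From U17_OE, Renbp was again in place 1, Tenm4 in place 8 and Klra4 in place 258. The 6 other genes with the largest falls from WT, picked by that fall, include 4 genes detected on 0 of 4 U17_KD arrays. The matricellular protein Smoc1 was at least 10.2-fold lower, Snurf, from the imprinted Snrpn locus, at least 10.5-fold, the embryonic globin Hbb-bh1 at least 10.2-fold and mesothelin (Msln) at least 5.85-fold. Of the remaining pair, Bnc1, a zinc finger protein of keratinocytes, was detected on 1 of 4 U17_KD arrays with a log2 fold change of -3.97 ± 0.15, and the growth factor Igf2 changed by -3.04 ± 0.09.

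The comparison of U17_OE with WT was not used to choose the genes, though it shares its WT and U17_OE arrays with the comparisons that were. The choice can still set its direction. A gene picked by its fall from U17_OE tends to read higher in U17_OE than in WT, and one picked by its fall from WT lower. Kcnn4 was in place 23 of the falls from U17_OE and in place 85 from WT, and Klra4 in places 258 and 19. In U17_OE against WT the genes split. Kcnn4, Fez1 and Tenm4 were higher in U17_OE, Klra4, Klk8, Cpne8 and Cdsn were lower, and Renbp and Atg9b did not pass the test. That is 3 genes higher and 4 lower by limma at an adjusted p of 0.05, where 6.48% of all genes were called higher and 6.37% lower. The share of these genes called is above that background, but they were chosen with these arrays in view. By group overlap, 4 genes (the 3 called higher and Renbp) had every U17_OE array above every WT array, against 8.09% of all genes. The 3 genes Klra4, Klk8 and Cdsn had every U17_OE array below every WT array, against 7.89%.

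Kcnn4 intensity in U17_OE was 169% of WT, 619 ± 80.1 against 366 ± 23.8 (mean ± SD, n = 4), a log2 fold change of 0.73 ± 0.12 (SE, adjusted p = 0.000456 by limma). Tenm4 stood at 155% of WT, 689 ± 51.7 against 444 ± 67.6, with a log2 fold change of 0.63 ± 0.13 (adjusted p = 0.00359 by limma). Fez1 stood at 152% of WT, 3701 ± 342 against 2429 ± 214, with a log2 fold change of 0.60 ± 0.09 (adjusted p = 0.000119 by limma). The second probes of Tenm4 and Fez1 gave 0.61 and 0.71 and were called too. U17_KD lay below and U17_OE above WT in these genes, as in Renbp, which did not pass the test.

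Klra4 intensity in U17_OE was 32.7% of WT, 341.5 ± 88.7 against 1045 ± 162, a log2 fold change of -1.60 ± 0.17 (adjusted p = 5.24e-06 by limma). Its second probe gave -0.997 (adjusted p = 0.00541). Klk8 stood at 63.4% of WT, 300 ± 40.8 against 473 ± 32.1, with a log2 fold change of -0.64 ± 0.15 (adjusted p = 0.00757 by limma). In these genes both clones read below WT.

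The calls for Cpne8 and Cdsn were close to the threshold. Cpne8 in U17_OE was at 76.4% of WT, with a log2 fold change of -0.39 ± 0.11 (adjusted p = 0.0288 by limma). Its second probe gave -0.15 (adjusted p = 0.574), and the call was lost when U17_OE replicate 1 or 2 or WT replicate 1, 2 or 4 was left out, with adjusted p up to 0.0828. Cdsn stood at 75.4% of WT, with a log2 fold change of -0.39 ± 0.12 (adjusted p = 0.0436 by limma). Its 2 other kept probes gave -0.35 and -0.40 (adjusted p = 0.165 and 0.162). Its call was lost with U17_KD replicate 2, U17_OE replicate 1, 2 or 4 or WT replicate 1, 3 or 4 left out, with adjusted p up to 0.12, and at 0.067 with the replicate number as a block.

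Renbp in U17_OE stood at 123% of WT, 2447 ± 81.4 against 1989 ± 181, with a log2 fold change of 0.30 ± 0.12 that did not pass (adjusted p = 0.12 by limma). Atg9b stood at 100.3% of WT, with a log2 fold change of 0.01 ± 0.14 (adjusted p = 0.989 by limma). Atg9b is thus the member of the group with the most similar mean intensities in WT and U17_OE.

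**Figure D2:**
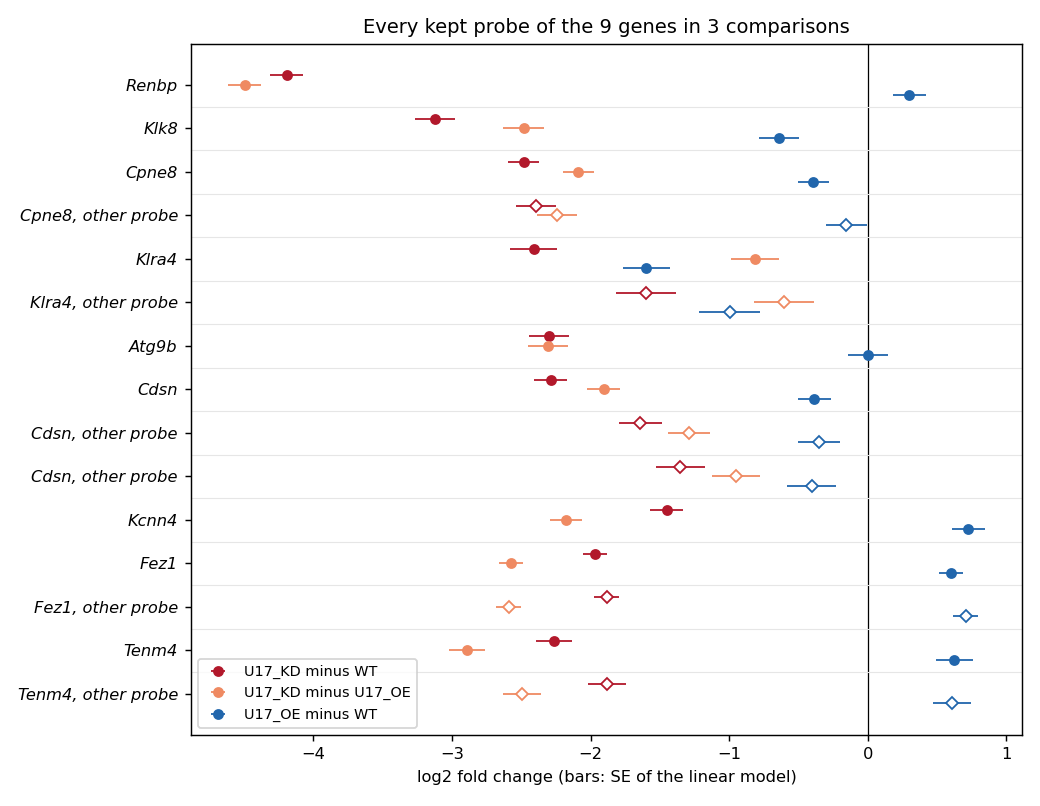
Log2 fold change ± SE of each kept probe of the 9 genes in U17_KD against WT, U17_KD against U17_OE and U17_OE against WT. The falls in U17_KD run from -4.19 to -1.45 from WT at the main probes, whereas the U17_OE values lie on both sides of 0, from -1.60 to 0.73.

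The genes resembled one another across groups and not within them. Pearson's r between 2 of the 9 over the 12 arrays ranged from 0.47 (Klra4 with Kcnn4) to 0.99 with a median of 0.94, over 36 pairs. These values are set by the group differences for which the genes were chosen. After group means were removed, r ranged from -0.53 to 0.65 with a median of 0.05, and 15 of 36 pairs were below 0. Both are descriptions of 12 arrays that share normalization. Over the same arrays, 142 genes had r above 0.95 with the mean of the 9, led by Pdlim1 at 0.998, a LIM domain protein of the actin cytoskeleton, by Snurf at 0.998 and by Rhot2 at 0.997, a mitochondrial GTPase. Pdlim1 was lower by 1.96 on the log2 scale in U17_KD than in WT, a log2 fold change of -1.96, and Rhot2 changed by -0.99. The next were Havcr2 and Rab27a, both at 0.996 and both detected on 0 of 4 U17_KD arrays, at least 5.75-fold and at least 4.28-fold lower. The gene closest to Klra4 alone was Rnf113a2, at 0.988, with -1.92 in U17_KD and -1.34 in U17_OE, both from WT.

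Other genes of the same pathways and families were examined in 9 lists. In U17_KD against WT, 20.0% of all genes were called higher and 20.4% lower, and in U17_OE against WT 6.48% and 6.37%. Of 16 measured genes of amino sugar and sialic acid metabolism, the pathway of Renbp, 6 were higher, 0 lower and 10 not called, with a median of 0.18. They include the deaminase Gnpda2 (log2 fold change 0.78), the kinase Nagk (0.68, with 3 other probes at 0.70 to 0.84) and Gfpt1, the first enzyme of hexosamine synthesis (0.48, where 2 other probes were not called). In U17_OE, 0 of these 16 were called against WT by limma, and 1 at an unadjusted p under 0.05, but 3 were called without U17_OE replicate 3. So 0 of 16 fell with Renbp in U17_KD by this test.

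Of 2 measured copines, the family of Cpne8, 0 were called in U17_KD or U17_OE by limma, and 0 in each at an unadjusted p under 0.05. Of 26 measured autophagosome genes, 12 were higher in U17_KD, 3 lower and 11 not called, with a median of 0.26 against -0.02 for all genes. Atg12, a ubiquitin-like conjugation factor, rose by 1.31, Atg9a, the paralog of Atg9b, by 0.99 and Atg10 by 0.78 on the log2 scale. Atg9a moved in the direction opposite to Atg9b in the same arrays and was detected on 3 of 4 WT arrays. The lower genes were Atg7 (-0.60), Atg2b (-0.52) and Atg16l1 (-0.31). In U17_OE 2 were higher, with Atg12 at 0.53, and 2 were lower, with Atg2b at -0.69, where its other probe was not called. These shares lie close to those of all genes, and 7 were called in place of 4 without U17_OE replicate 3.

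Of 9 measured partners of Fez1 and kinesin genes, 1 was higher in U17_KD, 3 were lower and 5 not called, with a median of -0.14. Fez2, the paralog of Fez1, changed by -0.56 in U17_KD and -0.59 in U17_OE, so it was lower in both clones while Fez1 was lower in one and higher in the other. Klc1, a kinesin light chain, changed by -0.64, with 4 other probes not called, the centrosomal tubulin Tubg1 by -0.32, and the motor subunit Kif3a by 0.43. In U17_OE 1 of 9 was higher (Kif3a, 0.29, with another probe at 0.10 not called) and 1 lower (Fez2), and 1 in place of 2 was called in 9 of the alternatives, the replicate block and 6 left-out arrays among them: U17_KD replicate 4, U17_OE replicates 2 and 4, and WT replicates 2, 3 and 4. The main probe of Klc1 was not called in U17_OE, whereas 3 of its other probes were, at -0.62, -0.84 and -0.47 (adjusted p = 0.00304, 0.00759 and 0.0228 by limma).

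Of 5 measured kallikreins, their inhibitors and epidermal proteases, 3 were lower in U17_KD, 1 higher and 1 not called, with a median of -0.52. Klk10 changed by -1.50 and lay at -0.54 in U17_OE. Klk7, the protease known to cleave corneodesmosin, was detected on 4 of 4 WT arrays and on 0 of 4 in each clone, and U17_KD was at least 1.05-fold lower. It was not called in U17_OE (adjusted p = 0.201 by limma). Klk10 and Klk7 are also counted among the neighbours of Klk8 below, at 12.1 and 7.47 kb from it. The serpin Serpinb6a changed by -0.61, where its other probe was not called at 0.11, and Serpina3n rose by 0.96 in U17_KD and 1.91 in U17_OE. In U17_OE 1 gene of this list was higher and 1 lower, and 1 in place of these 2 was called without U17_KD replicate 1, U17_OE replicate 1 or 2, or WT replicate 1, 2 or 4, without the filter on detection and with the replicate block. Of 7 measured genes of the desmosome and cornified envelope, 2 were higher in U17_KD, 1 lower and 4 not called, with a median of -0.09. The lower gene was the desmosomal plakophilin Pkp2, detected on 0 of 4 U17_KD arrays and at least 2.71-fold lower than in WT, with 2 other probes called at -0.91 and -1.74. The cystatin Cstb rose by 0.44 and Pkp4 by 0.23, the latter with 2 other probes not called. In U17_OE, Cstb was higher at 0.22 and the other 6 were not called. That call was lost, leaving 0, without U17_OE replicate 2 or 4 or WT replicate 2, 3 or 4, with quantile normalization, with no mean-variance trend and with the replicate block.

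Of 17 Ly49 and related receptors with a probe, 1 was measured, the lectin-like Clec2d, which rose by 0.81 in U17_KD and was not called in U17_OE. Of 7 measured potassium channel genes and partners of Kcnn4, 0 were higher in U17_KD, 3 lower and 4 not called, with a median of -0.16. The mechanically gated channel Piezo1 changed by -0.66 in U17_KD and -0.53 in U17_OE, where its other probe was not called in either, the histidine kinase Nme2, an activator of Kcnn4, by -0.29 in U17_KD (another probe not called), and calmodulin gene Calm3 by -0.24. In U17_OE 1 of 7 was called, and 2 without U17_OE replicate 3. Of 4 measured genes of the teneurin and latrophilin group, 2 were lower in U17_KD and 2 not called, with a median of -0.26, and 4 were called with array weights. They were Flrt2 (-1.82) and Flrt3 (-0.78), adhesion proteins that bind latrophilins. In U17_OE the median was -0.65, and 2 of 4 were lower, among them Flrt3 at -1.88.

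**Figure D3:**
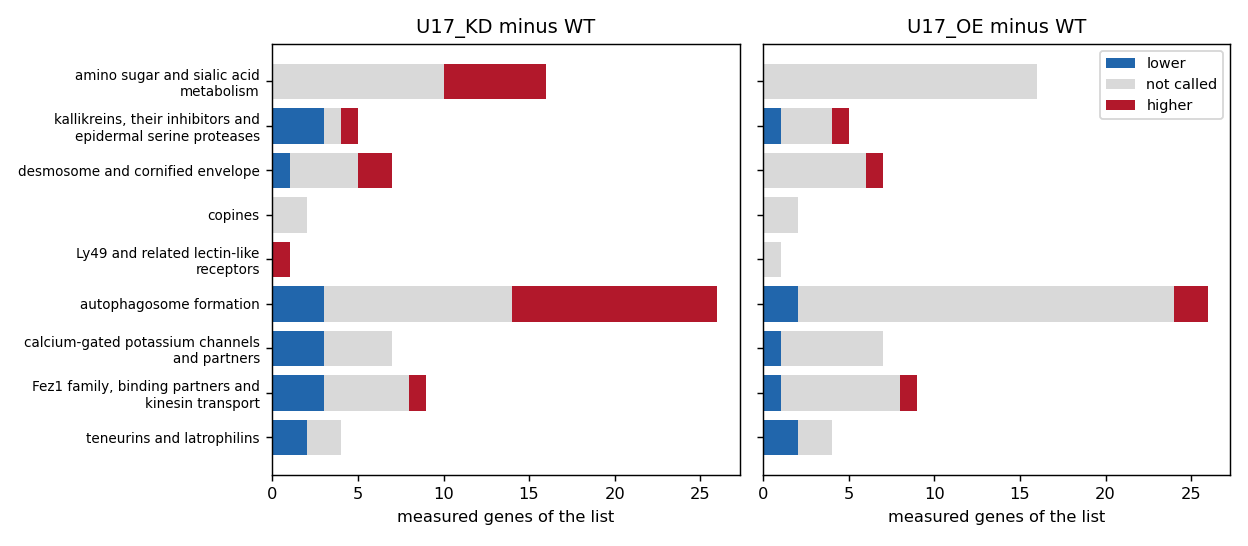
Number of measured genes of each of the 9 lists called lower, not called and called higher against WT, in U17_KD and in U17_OE. The 9 chosen genes are left out of the lists. Of the autophagosome genes in U17_KD, 12 were higher, 3 lower and 11 not called.

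Most markers of the tissues in which several of the genes are best known were under detection in all groups. Of 11 keratinocyte markers with a probe, 9 were detected on no array, among them Krt5, Krt1, Ivl and Lor. Krt10 was detected on all arrays of every group and Krt14 on all WT and all U17_OE arrays, and the summed intensity of the list was 403.5 to 523 in WT, 440 to 523 in U17_KD and 446 to 652 in U17_OE. Of 9 markers of natural killer cells, 8 were detected on no array, Ncr1 and Klrb1c among them, and Prf1 was detected on all arrays of every group, with sums of 166 to 295 in WT, 146 to 228 in U17_KD and 160 to 251 in U17_OE. Of 10 neuronal markers, 9 were detected on no array, with sums of 157.5 to 182 in WT, 49.3 to 91.9 in U17_KD and 43.7 to 70.6 in U17_OE, and Map2 was detected on all 4 arrays in WT only. Of 12 fibroblast markers, 11 were detected on all WT and all U17_KD arrays, with sums of 58590 to 66770 in WT, 69440 to 74050 in U17_KD and 56880 to 65840 in U17_OE. On all U17_OE arrays 10 fibroblast markers were detected. By limma 8 of 11 measured fibroblast markers were higher in U17_KD than in WT and 0 were lower. Of 2 measured keratinocyte markers 1 was lower, and so was the 1 measured neuronal marker. Of all genes, 20.0% were called higher in U17_KD and 20.4% lower. The neuronal marker was also lower in U17_OE than in WT, where no marker of the other types was called. The part of these differences in fibroblast and neuronal markers in the falls described above was not tested.

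By position on GRCm38.p6, 3 of the 9 genes (Klk8, Kcnn4 and Tenm4) lie on chromosome 7, which holds 7.65% of 8943 placed genes, and the other 6 each on a chromosome of its own. Of the genes of chromosome 7, 2.92% fell at least 2-fold from WT to U17_KD, against 1.99% of all placed genes. The 3 chosen genes are counted in the 2.92% and were picked for their falls, so part of the difference comes from the choice. The neighbours of the 9 are up to 3 measured protein-coding genes on each side, taken from the 10 nearest on that side. They reach as far as 3501 kb from Tenm4, and Klra4 has only 1, at 323.1 kb. Of 46 neighbours, 17 were called in U17_KD, which is 37% against 40.5% of all genes. Of these neighbours 6 were higher and 11 lower, where 20.0% of all genes were called higher and 20.4% lower. The median of the neighbours was -0.08, and 2 were at least 2-fold lower. These were Plaur, the urokinase receptor, 75.7 kb from Kcnn4 (-1.53, and -0.71 in U17_OE), and Klk10, 12.1 kb from Klk8 (-1.50). The highest neighbours were Abcd2 (1.68) and Arsa (1.04), 466.5 and 1010 kb from Cpne8, and Tmem218 (0.93), 329.3 kb from Fez1. Nos3, whose annotated interval meets that of Atg9b, was detected on only 1 of 4 WT and 1 of 4 U17_KD arrays, so that a fall could not be seen there; it was singled out after its values were seen. Around Cdsn, 4 of 6 neighbours were lower and 0 higher, whereas around Cpne8 4 of 6 were higher and 0 lower. Both features were picked out after the values were seen. Mucl3 had the largest change around Cdsn, at -0.78. Cchcr1, another of the lower neighbours of Cdsn, has a second kept probe that was not called (-0.40, adjusted p = 0.127 by limma). In U17_OE, 3 of 46 neighbours were called against WT, 6.52% against 12.8% of all genes.

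**Figure D4:**
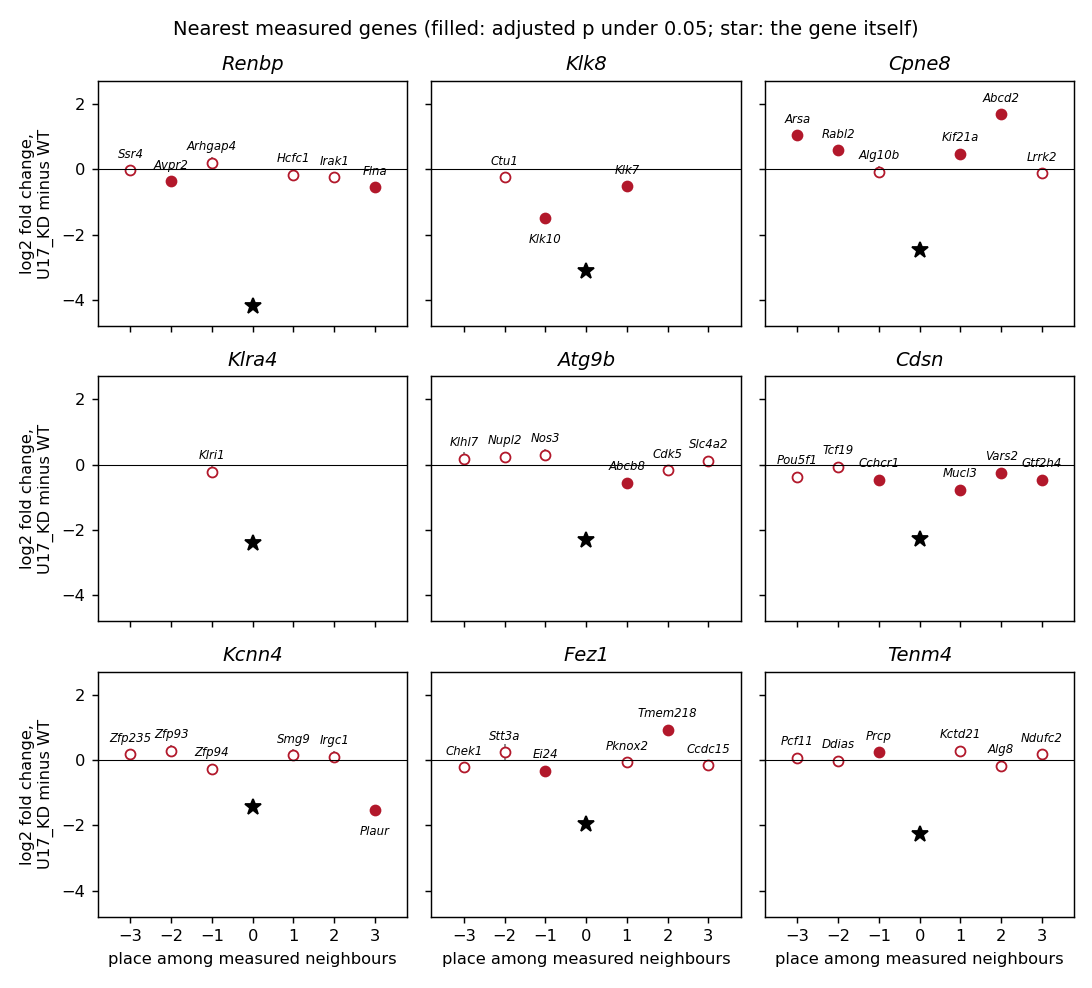
Log2 fold change in U17_KD from WT of the measured neighbours of each of the 9 genes, by order on either side of the gene, with the gene itself at 0 on the horizontal axis. The neighbours run from -1.53 to 1.68, and none reaches the fall of the gene it is counted for except in the case of Plaur, which is as low as Kcnn4 (-1.45).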

How the data were processed

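Oligo-dT priming and biotin labelling are stated per the labels. GenomeStudio 2010 is named by the submitters' processing notes. The authors deposited a normalized table of probe intensity values with background subtracted, which was the main input. How it was normalized between arrays, and the genome build, are not given in the sources used here. A second deposited table holds, per the file headers, unnormalized intensity with a detection p-value. Only its WT columns were used: the other 40 of 48 belong to array names found in no label.

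Groups and replicate numbers were read from sample titles. Background mean (0.492) and SD (15.8) came from WT detection p-values and were used for normexp on all 12 arrays, after which an offset of 16 was added, log2 was taken and nothing was normalized further. The detection level (30.5) disagreed with the detection p-value for 0.155 to 1.51% of probes on the WT arrays. The filter, detection on at least 4 arrays, kept 16706 of 45281 probes. Of these, 14181 had a name from the platform annotation, in which 34885 probes have 1 symbol, 18 have several and 10378 are not listed; 34807 matched a RefSeq gene by gene ID. The fold is written "at least" where a group was below detection on all 4 arrays, against the dim probe's own value or, where higher, the lowest detected value of that array.

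The test was limma 3.58.1 (R 4.3.3), in 1 model of 3 groups with 9 residual degrees of freedom and a mean-variance trend, two-sided, with Benjamini-Hochberg adjustment over the 16706 kept probes and a threshold of 0.05. The fit was tested on simulated data. A summed marker level adds the intensities of each marker's probe with values below 0 set to 0. Python 3.11.15 with pandas 2.3.3 made the tables. The number of arrays limits precision.

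The 9 genes, the lists and the tests were chosen with earlier results of these data known. Named by rule were the 9 genes with all their probes, the 5 genes most like their mean and the 6 other genes with the largest falls from WT. So were the list genes with the largest called changes in each direction (up to 3 in U17_KD and 1 in U17_OE). The rule also covered up to 6 called neighbours with the largest changes. The 1 gene most like each of the 9 was found too, but only that of Klra4 is named. Alternatives were normexp fitted to each array, another offset, quantile normalization, other filters on detection, array weights, no variance trend, the replicate number as a block, other probes and each array left out.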

Additional observations from a re-analysis of the deposited data

Results flagged for a closer look

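In 45 groups of 4 arrays, 1 group for each kept probe and condition, 1 array lay far enough from its 3 companions to pass Dixon's 95% critical value for its gap over the range of the group. It was WT replicate 2 at the second probe of Klra4, with a log2 intensity of 6.52 where the other WT arrays read 7.04 to 7.14. Chance gives about 1 such array in 20 groups. The same array was also the lowest of the WT group at the main probe of Klra4, at 810.4, with the others at 1084 to 1181.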

How the results depend on the processing

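All 9 falls in U17_KD kept their direction in all 20 alternatives, 12 of which left out 1 array each. Their median from WT moved from -2.30 to -1.91 with normexp fitted to each array and to -1.92 with an offset of 50. It became -1.88 when genes with another kept probe were read at the next one and the rest at their main probe. The median from U17_OE moved from -2.31 to -1.93 with normexp fitted to each array and to -1.94 with an offset of 50. The fall of Klk8 from WT became -2.51 and -2.53 under these 2 settings. A larger offset shrinks log2 changes near background by construction, and the cause of the other shifts was not tested. With 1 array left out, 5 to 7 of the 9 genes passed the test in U17_OE against WT, and the adjusted p ranged over all alternatives from 0.0108 to 0.574 for Cpne8 and from 0.023 to 0.165 for Cdsn. Without the filter on detection both were lost, at 0.0689 and 0.111. Renbp did not pass in any (0.0689 to 0.256), and Klk8, Klra4, Kcnn4, Fez1 and Tenm4 passed in all. Atg9b in U17_OE changed sign to -0.06 without U17_OE replicate 1, -0.01 without U17_OE replicate 4, -0.0050 without WT replicate 2 and -0.0765 without WT replicate 4, with up to 0.0699 without U17_OE replicate 3, and did not pass in any. The number of all probes called in U17_OE against WT was 1925, and 1261 to 2981 with 1 array left out, lowest without U17_OE replicate 4 and highest without U17_OE replicate 3. Neighbours called in U17_OE went from 3 to between 1 and 5, with 5 without U17_OE replicate 3 and 1 without WT replicate 2. Without U17_OE replicate 3, the calls in U17_OE went from 0 to 3 for the amino sugar list, from 4 to 7 for the autophagosome list and from 1 to 2 for the potassium channel list. The amino sugar count was 1 without U17_OE replicate 2 and with array weights, which also gave 2 for the potassium channel list. In other alternatives the kallikrein and Fez1 lists went from 2 to 1 and the desmosome list from 1 to 0. In U17_KD the teneurin list went from 2 to 4 with array weights. Deviations of same-numbered arrays from their group means correlated by -0.38 to 0.09, so the numbers were not taken to pair the samples. With the replicate number as a block, 6 of the 9 genes (Cdsn was lost) and 1 of 46 neighbours were called in U17_OE, and 1398 of all probes. Signal over background limits the U17_KD values of Klk8, some of which lie close to the detection level of 30.5. The U17_KD arrays of Atg9b and Cdsn also read low at the main probe, down to 41.7 and 54.2.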
